A study of Homo sapiens with 6 samples.

Results

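Superoxide dismutases, catalase and peroxiredoxins are enzymes that remove superoxide and hydrogen peroxide, and their transcripts were compared between BEAS-2B cells given RSL3 and cells given RSL3 with indirubin. The set is given by gene symbol and consists of SOD1, SOD2, SOD3, CAT and PRDX1 to PRDX6. All 10 genes had 1 entry each among the 35019 Ensembl identifiers of the expression table, and all 10 passed the filter on low values that left 14188 genes for testing. BEAS-2B is an established, virus-transformed line from human bronchial epithelium, so the results describe 1 cell line.

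RSL3 inactivates the lipid peroxidase GPX4 and thereby starts ferroptosis, an iron-dependent death by lipid peroxidation, and indirubin is a plant-derived bis-indole. Both groups had 3 libraries and both had received RSL3, given at 2 µM for 24 h per the labels' protocols. The RSL3+ID group had in addition received indirubin from 2 h before RSL3, at a dose stated only as a range of 7.5 to 30 µM. Neither untreated cells nor cells given indirubin alone were analysed here, so a changed response to RSL3 and an effect of indirubin by itself cannot be told apart. Column names alone placed the libraries in their groups, and the libraries are numbered as the columns are. No column name holds RSL3+ID or indirubin. The columns used as RSL3+ID have a garbled word beside RSL3, read as "drug given" after repair of its encoding. They were assigned to RSL3+ID because no treatment other than this and RSL3 is listed. The letter M in the label RSL3+M, which the deposited data carry, is left unexplained. Whether the 3 libraries of a group are separate cultures is not stated, so the spread behind each p-value may be technical.

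Superoxide arises mainly as a by-product of the respiratory chain and from NADPH oxidases, and the dismutases turn it into hydrogen peroxide and oxygen. SOD1 is the copper and zinc enzyme of the cytosol, SOD2 the manganese enzyme of the mitochondrial matrix and SOD3 the secreted copper and zinc enzyme that binds the extracellular matrix, abundant in lung tissue. Catalase splits hydrogen peroxide in peroxisomes. Peroxiredoxins reduce peroxides with a reactive cysteine and are mostly recycled by thioredoxin, which draws its electrons from NADPH through thioredoxin reductase. PRDX1 and PRDX2 act in the cytosol, PRDX3 in mitochondria, PRDX4 in the endoplasmic reticulum, and PRDX5 in several compartments. PRDX6 keeps a single catalytic cysteine, uses glutathione and also reduces phospholipid hydroperoxides.

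The catalytic cysteine is what the 6 peroxiredoxins share, and the coding bases around it are shown because they tell how alike the transcripts are that the reads had to separate. Each line gives 33 bases of the coding strand from the GENCODE 29 principal transcript, with the codon of the catalytic cysteine in capitals. The codon is number 52 in PRDX1 (chromosome 1), 51 in PRDX2 (chromosome 19), 108 in PRDX3 (chromosome 10), 124 in PRDX4 (chromosome X), 100 in PRDX5 (chromosome 11) and 47 in PRDX6 (chromosome 1), counted from the start codon.
PRDX1: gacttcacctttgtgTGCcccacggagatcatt
PRDX2: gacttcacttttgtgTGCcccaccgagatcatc
PRDX3: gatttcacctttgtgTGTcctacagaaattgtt
PRDX4: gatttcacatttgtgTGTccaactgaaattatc
PRDX5: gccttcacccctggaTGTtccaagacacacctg
PRDX6: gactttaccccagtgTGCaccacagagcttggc

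PRDX1 to PRDX4 are close relatives, while PRDX5 and PRDX6 differ around the cysteine as well. PRDX1 and PRDX2 were the most similar pair over the whole coding sequence, with 72.6% identical aligned bases, and PRDX5 and PRDX6 the least similar, with 47.5%. The longest stretch that any 2 of the 6 principal transcripts had in common without a mismatch was 17 bp, between PRDX1 and PRDX4. Between the dismutases the longest was 13 bp, for SOD1 and SOD3.

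Annotated neighbours overlap some of the genes, and how reads were counted, and with which strand setting, is not given in the sources used here. SOD2 (chr6:159669057-159745186, minus strand, GRCh38) has 298 exon bases in common with WTAP on the opposite strand, which had between 1524 and 2289 normalised counts. In GENCODE 29 it also has 845 exon bases in common with a further entry named SOD2 on the same strand, ENSG00000285441. That entry is not in the table, which uses ENSG00000112096, and reads on the common bases cannot be attributed to one of them. PRDX1 (chr1:45511036-45523047, minus strand) has 379 exon bases in common with MMACHC on the opposite strand, which had at most 81.3 normalised counts in any library. PRDX2 (chr19:12796820-12801859, minus strand) has 296 in common with an antisense transcript that is not in the table.

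The libraries held between 15206183 and 18506637 reads on listed genes. Levels are given as normalised counts, which are reads divided by the size factor that the authors used for each library. Where no read is seen, counting error alone allows up to 3 reads, which is between 2.68 and 3.17 normalised counts. Of 7 epithelial markers, 5 had a mean of at least 10, with KRT8 between 17100 and 24000 and KRT18 between 4720 and 8920. KRT5 lay between 0 and 5.28 and CDH1 between 1.79 and 39.1, so the basal keratin and E-cadherin were at or near 0 in most libraries. Summed over the list, the epithelial markers ranged from 42800 to 47500 under RSL3 and from 33100 to 43300 under RSL3+ID. Of 6 mesenchymal markers, 4 had a mean of at least 10, with VIM between 4660 and 10200 and COL1A1 between 699 and 1350, and their sum ranged from 9610 to 10900 under RSL3 and from 5720 to 11400 under RSL3+ID. Of 6 leukocyte markers only CD14 had such a mean, between 413 and 835, while CD3E was at 0 in every library and PTPRC lay between 0 and 2.07. The leukocyte sum ranged from 416 to 573 under RSL3 and from 529 to 851 under RSL3+ID. Endothelial markers (3 of 4 with such a mean) summed to 117 to 150 under RSL3 and 68.4 to 205 under RSL3+ID. The part of these markers in the results was not tested. RSL3+ID library 2 differed from libraries 1 and 3 in several of the genes below, and values without it are given beside a number of the results.

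The 10 genes spanned a wide range of levels, which can be compared between genes only per length. Averaged over all 6 libraries and divided by the length of the principal transcript in GENCODE 29, SOD1 stood highest at 27000 normalised counts per kb, followed by PRDX5 at 8260. PRDX1 came next with 5660 to 6840 per kb, depending on which of its principal transcripts was used. Per kb of coding sequence PRDX1 had 11700 and PRDX5 11500, so their order depended on the length used. PRDX6 had 2490, PRDX2 2230, PRDX4 1800 and PRDX3 894 per kb. CAT had 138 to 139 per kb and SOD3 had 12.4. The library ranges of PRDX6 (2150 to 3010), PRDX2 (2030 to 2370) and PRDX4 (1340 to 2380) overlapped, so the order of these 3 is within their spread, while SOD1 (23700 to 30700) overlapped with none of the others on this measure. SOD2 could not be placed, since its principal transcripts are 990 and 14266 bp long and give 7060 and 490 per kb.

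The 10 genes together took 0.327%, 0.314% and 0.343% of the reads under RSL3, and 0.350%, 0.406% and 0.366% under RSL3+ID. SOD1 alone made up 43.1% to 46.7% of these reads. The RSL3+ID libraries had the higher shares, with no overlap between the groups, and no test was made of this sum.

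**Figure D1:**
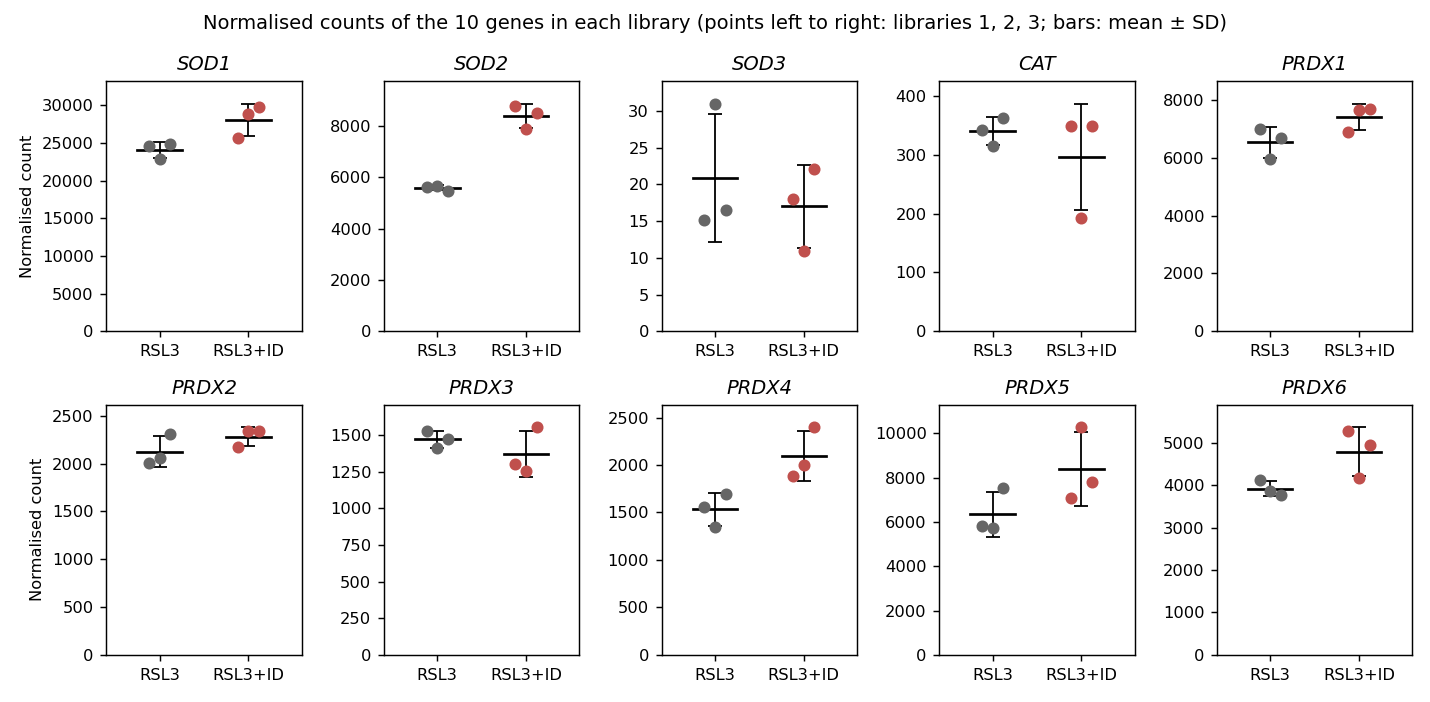
Normalised counts (y axis, linear from 0) of each of the 10 genes in the 3 RSL3 and 3 RSL3+ID libraries (x axis), with points for libraries 1, 2 and 3 from left to right and bars for the mean ± SD. The groups do not overlap for SOD1, SOD2, PRDX4 and PRDX6, and the RSL3+ID library 2 point is the lowest for CAT at 192.3 and the highest for PRDX5 at 10270.

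SOD2, the mitochondrial manganese dismutase, was the only member called, as higher with RSL3+ID. This call depended on the libraries and settings used, as given below. Libraries 1 to 3 had 5625, 5670 and 5478 normalised counts of SOD2 under RSL3, against 8787, 7870 and 8510 under RSL3+ID. Every RSL3+ID library lay above every RSL3 library, and the gap between the groups was far wider than the spread within either. The means were 5591 ± 100.2 and 8389 ± 470.4 (SD, n = 3 per group), a rise of 1.499-fold. On the log2 scale this was 0.58 (SE 0.12, 95% confidence interval 0.32 to 0.85), with an adjusted p of 0.0408 by limma. In the authors' deposited table of changed genes SOD2 is listed at 0.59 on the log2 scale (adjusted p = 0.00228), and it is the only one of the 10 genes in that table. In bulk RNA a change in how many cells carry a transcript and a change in its level per cell cannot be told apart.

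Of the 10 genes, 1 was called higher and 0 lower by limma at an adjusted p under 0.05, against 1.08% higher, 0.832% lower and 1.91% in either direction over all 14188 tested genes. At an unadjusted p under 0.05 there were 3, namely SOD2, PRDX4 and PRDX5, all higher, against 19.3% of all tested genes. Limma with voom weights on the recovered reads also called SOD2 alone. With plain empirical Bayes, neither trended nor robust, the call of SOD2 ended (adjusted p = 0.176), as 0 of the 14188 genes were called and 2402 had an unadjusted p under 0.05. The authors' table lists 1 of the 10, against 6.3% of the genes tested here. The call of SOD2 lay near the threshold and ended when any one of 5 libraries was left out, with an adjusted p from 0.0922, when RSL3+ID library 1 was left out, to 0.262, when RSL3 library 1 was. In these 5 settings between 0 and 4 of all 14188 genes were called, so the loss was not particular to SOD2. The log2 fold change of SOD2 itself stayed between 0.55 and 0.63 with any 1 library left out. Without RSL3+ID library 2 the adjusted p was 0.00152, and 3 of the 10 genes were called, SOD2, PRDX4 and PRDX6, against 9.34% of all tested genes at that setting.

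**Figure D2:**
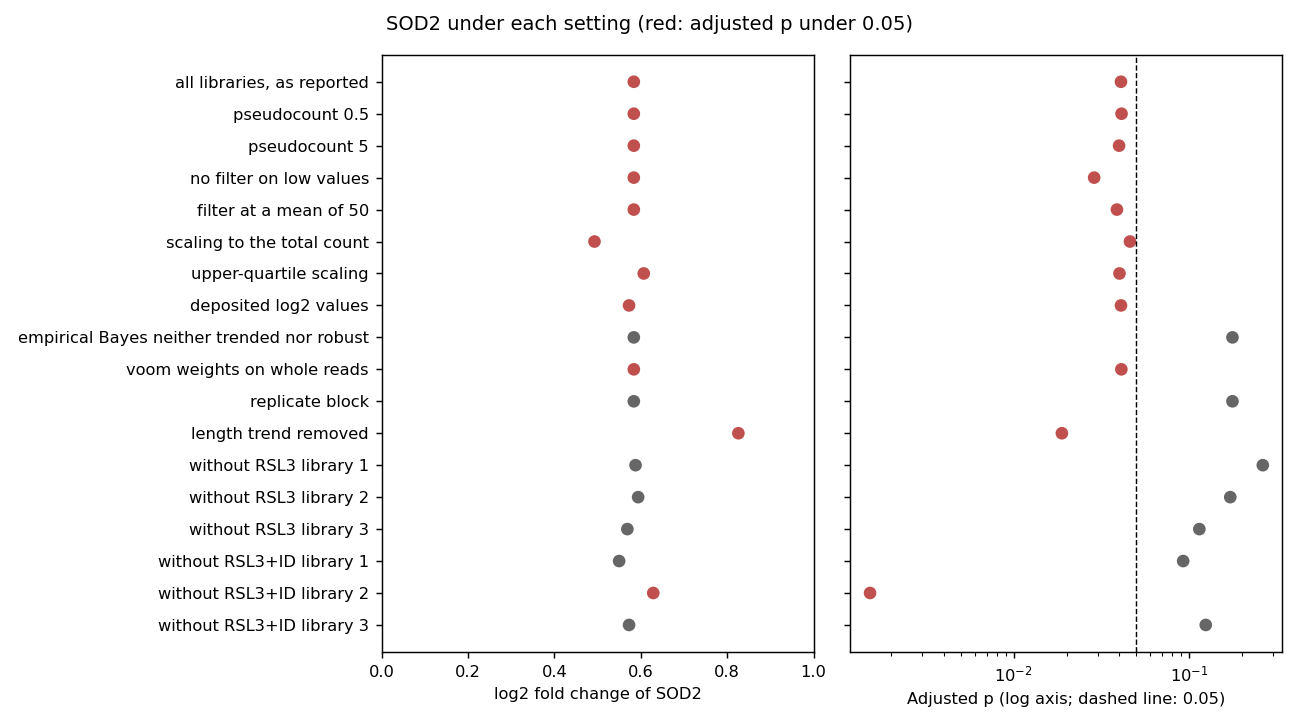
SOD2 under each setting (y axis), with the log2 fold change of RSL3+ID over RSL3 in the left panel and the adjusted p on a log axis in the right panel, where the dashed line is 0.05 and red marks values under it. The fold change lies between 0.49 and 0.83 in all settings, and the adjusted p lies between 0.00152 and 0.262.

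The upstream sequence of SOD2 is shown because SOD2 is the gene that passed the test. RefSeq promoters of GRCh38.p14 were available for 7 of the 10 genes, which were all but SOD1, PRDX1 and PRDX6, in 11 entries. SOD2 has 4 entries, and the one whose window holds the start of its principal transcript was used. Left out are the last 87 of the 250 bases before its RefSeq start, which lie in annotated SOD2 exons. Shown are the bases from 250 to 88 before that RefSeq start. This stretch of 163 bases lies at chr6:159693329-159693491 on the minus strand, inside an intron of longer annotated SOD2 transcripts and free of annotated exons. Capitals mark GC boxes, the letters GGGCGG searched on both strands, which are known as binding sites of the factor SP1.
SOD2 upstream: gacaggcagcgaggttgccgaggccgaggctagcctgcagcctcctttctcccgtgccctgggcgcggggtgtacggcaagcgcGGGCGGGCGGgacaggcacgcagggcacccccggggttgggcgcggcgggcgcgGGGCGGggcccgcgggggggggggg

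This stretch is 81.0% G and C and holds 3 GC boxes, of which 2 overlap in the first block of capitals. The full 250 bases of the entry hold 6. At least 1 GC box was present in the same window of 28.2% of the 35116 promoters. The core of the antioxidant response element bound by NRF2, TGACNNNGC on both strands, was in none of the 11 entries of the 7 genes within 250 bases before the start, against 10.9% of all promoters. That says only that these letters are not in these windows.

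The other dismutases did not pass. SOD1 (chr21:31659622-31668931, plus strand), the most abundant of the 10 transcripts, had 24550, 22890 and 24860 normalised counts with RSL3 and 25580, 28800 and 29700 with RSL3+ID. All RSL3+ID values lay above all RSL3 values, but library 1 of RSL3+ID lay only slightly above the highest RSL3 library. The estimate for SOD1 was 0.22 on the log2 scale (SE 0.12, 95% interval −0.05 to 0.48, adjusted p = 0.350). SOD3 (chr4:24789912-24800842, plus strand) was barely detected, with 15.2, 31.0 and 16.5 normalised counts with RSL3 and 17.9, 10.9 and 22.1 with RSL3+ID. These values come from between 11 and 30 reads per library, and the groups overlapped throughout. Its log2 fold change of −0.27 had a 95% interval from −1.43 to 0.90 (adjusted p = 0.829), so the values allow any change in that range, in either direction. Its sign rested on single libraries, since the estimate was 0.04 with RSL3 library 2 left out and 0.006 with RSL3+ID library 2 left out.

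The difference between the dismutases was examined as the ratio of SOD2 to SOD1 counts within each library, a comparison chosen after the values were seen. This ratio was 0.229, 0.248 and 0.220 with RSL3 and 0.344, 0.273 and 0.287 with RSL3+ID. The groups did not overlap (0.232 ± 0.014 and 0.301 ± 0.037, SD, n = 3 per group). The exact 2-sided permutation test gave p = 0.10, the smallest p that 3 against 3 libraries allow, so it could not reach 0.05. Of 3 such ratios compared, all chosen after the values were seen, each had an adjusted p of 0.10 by the same exact permutation test.

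Catalase, the peroxisomal enzyme, did not pass and was uneven between libraries. CAT (chr11:34438925-34472062, plus strand) had 341.3, 315.0 and 362.4 normalised counts with RSL3 and 348.5, 192.3 and 348.5 with RSL3+ID. The low value of RSL3+ID library 2 was the only one outside the range of the RSL3 group. For CAT the log2 fold change was −0.25 (SE 0.24, 95% interval −0.77 to 0.28, adjusted p = 0.625), and without that library it was 0.04.

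PRDX3, which sits beside SOD2 in mitochondria, did not pass and had a negative estimate. PRDX3 (chr10:119167703-119178833, minus strand), the peroxiredoxin of the mitochondrial matrix, had 1530, 1416 and 1472 normalised counts with RSL3 and 1304, 1257 and 1553 with RSL3+ID. RSL3+ID library 3 was the highest of all 6 libraries and the other two of that group were the lowest. Its estimate was −0.11 on the log2 scale (SE 0.15, 95% interval −0.42 to 0.21, adjusted p = 0.725). The ratio of SOD2 to PRDX3 counts was also chosen after the values were seen, between genes whose estimates lay apart, so it is no further support. It was 3.68, 4.00 and 3.72 with RSL3 and 6.74, 6.26 and 5.48 with RSL3+ID, without overlap (exact 2-sided permutation p = 0.10, the smallest allowed).

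PRDX4 had the largest estimate among the peroxiredoxins. PRDX4 (chrX:23664262-23686399, plus strand), which handles peroxide made during protein folding in the endoplasmic reticulum, had 1554, 1345 and 1697 normalised counts with RSL3 and 1889, 1997 and 2395 with RSL3+ID. All RSL3+ID libraries lay above all RSL3 libraries. Their difference was 0.45 on the log2 scale (SE 0.15, 95% interval 0.12 to 0.78) with an adjusted p of 0.139, so it did not pass over all genes. Without RSL3+ID library 2 PRDX4 passed, at 0.48 (limma adjusted p = 0.0444), a setting at which 9.34% of all tested genes were called. With any other library left out its adjusted p was between 0.151 and 0.401. The ratio of PRDX4 to PRDX3, chosen in the same way and no further support either, was 1.02, 0.950 and 1.15 with RSL3. With RSL3+ID it was 1.45, 1.59 and 1.54 (exact 2-sided permutation p = 0.10, the smallest allowed).

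PRDX5 and PRDX6, the members with the most divergent cysteine sites above, also had positive estimates that did not pass. PRDX5 (chr11:64318088-64321811, plus strand) had 5805, 5743 and 7523 normalised counts with RSL3 and 7100, 10270 and 7798 with RSL3+ID. RSL3+ID library 2 was far above the rest, and RSL3 library 3 lay within the range of the other group. Its log2 fold change was 0.39 (SE 0.17, adjusted p = 0.217), and 0.24 without RSL3+ID library 2. PRDX6 (chr1:173477266-173488807, plus strand), the phospholipid hydroperoxide reductase, had 4119, 3861 and 3768 with RSL3 and 5271, 4167 and 4946 with RSL3+ID. The groups did not overlap, though RSL3+ID library 2 lay only slightly above the highest RSL3 library. On the log2 scale PRDX6 differed by 0.29 (SE 0.14, adjusted p = 0.277). Without RSL3+ID library 2 it was 0.38 and passed, with a limma adjusted p of 0.0487, where 9.34% of all tested genes were called. With any other library left out the adjusted p of PRDX6 was between 0.439 and 0.497.

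The cytosolic peroxiredoxins did not pass either. PRDX1 had 6987, 5950 and 6700 normalised counts with RSL3 and 6888, 7666 and 7691 with RSL3+ID, with library 1 of RSL3+ID inside the range of the RSL3 group. Its log2 fold change was 0.18 (SE 0.13, 95% interval −0.10 to 0.46, adjusted p = 0.470). PRDX2 had 2001, 2063 and 2311 with RSL3 and 2172, 2336 and 2338 with RSL3+ID. The groups overlapped, and the log2 fold change of PRDX2 was 0.10 (SE 0.13, 95% interval −0.19 to 0.40, adjusted p = 0.712).

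**Figure D3:**
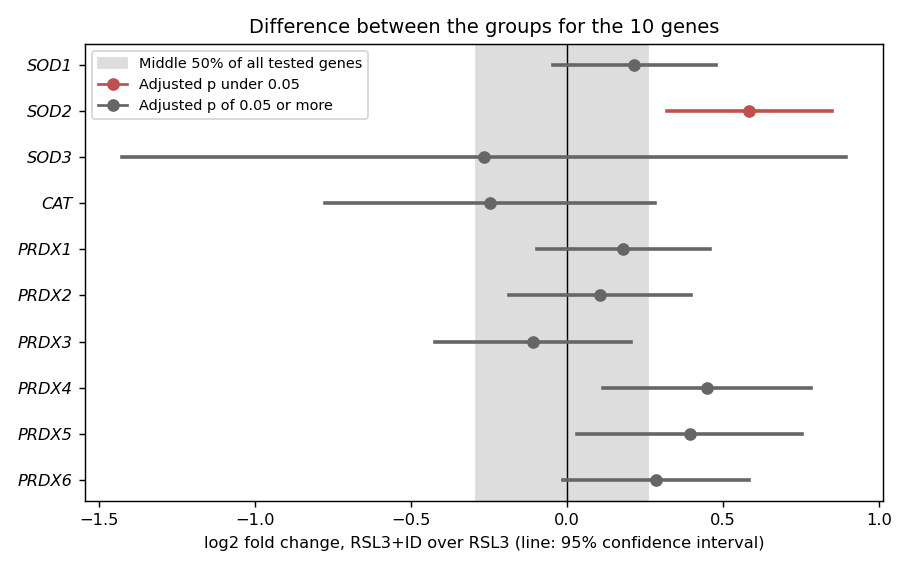
Log2 fold change of RSL3+ID over RSL3 (x axis) with its 95% confidence interval for each of the 10 genes (y axis), where the grey band is the middle 50% of all 14188 tested genes, from −0.29 to 0.26. SOD2 at 0.58 is drawn in red as the gene that passed the test, and the interval of SOD3 is the widest, from −1.43 to 0.90.

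Across the 10 genes, 7 estimates were positive and 3 negative, and the median log2 fold change was 0.20 against −0.02 over all tested genes. The groups did not overlap in 4 of the 10, SOD1, SOD2, PRDX4 and PRDX6, all higher with RSL3+ID. Over all tested genes 25.4% had groups without overlap, 12.8% higher and 12.6% lower. Among the 5366 genes with a mean of at least 500 normalised counts, a limit that 8 of the 10 genes exceed and that was chosen after the values were seen, 19.5% were higher without overlap. The size of the estimates depended on how transcript length was treated. With a trend on exon length removed from each library, the median of the 10 genes was 0.04 and the log2 fold changes were 0.07 for SOD1, 0.003 for PRDX1, 0.16 for PRDX5, 0.16 for PRDX6, 0.30 for PRDX4 and −0.04 for PRDX2. PRDX3 was at −0.167, CAT at −0.294 and SOD3 at −0.405. The log2 fold change of SOD2, whose annotated exons sum to 16493 bp against 893 to 3590 bp for the other 9 genes, was 0.83 (adjusted p = 0.0188). This value rests on that annotated length, while the principal transcripts of SOD2 are 990 and 14266 bp long. Scaling to the total count moved the median of all genes to −0.11 and that of the 10 genes to 0.11, with SOD2 at 0.49 (adjusted p = 0.0459). Genes called higher were 56.5% of all calls; this share was 29.3% when libraries were scaled to their totals and 68.0% with upper-quartile scaling.

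The genes whose values over the 6 libraries lay nearest to SOD1 and SOD2 were found by the Euclidean distance of centred log2 values, among 10044 other genes with a mean of at least 100 normalised counts. Nearest to SOD2 were C9orf78, SAP18 and FAM32A, at distances of 0.0968, 0.129 and 0.139. C9orf78 had 1347, 1430 and 1322 normalised counts with RSL3 and 2142, 1960 and 2207 with RSL3+ID. It was picked by this distance, so its likeness to SOD2, RSL3+ID library 2 included, follows from the choice. Nearest to SOD1 were MAGT1, TUFM and REXO2, at 0.0640, 0.0773 and 0.0779.

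The genes that supply and surround these enzymes were read from 6 lists with 89 entries, of which 76 were tested. Limma called 0 of the 76 at an adjusted p under 0.05 and voom weights also gave 0, while 19 had an unadjusted p under 0.05, against 19.3% of all tested genes. NFE2L2 was called with scaling to the total count (adjusted p = 0.0499), and ACOX2 was called with no filter on low values (adjusted p = 0.0479). The authors' deposited table lists 6 of the 76, against 6.3% of all tested genes, namely TXN, IDH1, QSOX1, ACOX2, PEX13 and NFE2L2. All 6 had groups that did not overlap, against 25.4% of all tested genes. They were listed from the same libraries, so this is no separate support. Without RSL3+ID library 2 limma called 3 genes of the thioredoxin list, 3 of the regulators and 2 each of the NADPH, peroxisome and peroxide-producing lists. These 12 of 76 stand against 9.34% of all tested genes at that setting, and they include all of those 6 genes but PEX13.

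The thioredoxin cycle passes electrons from NADPH to the peroxiredoxins, and its 15 genes had 9 positive and 6 negative estimates, with a median log2 fold change of 0.10. TXN, the cytosolic thioredoxin that reduces PRDX1 and PRDX2, had 7970, 8456 and 8792 normalised counts with RSL3 and 11390, 10740 and 13260 with RSL3+ID. Its log2 fold change was 0.48 (SE 0.13, adjusted p = 0.0761), and the authors' deposited table gives 0.49 with an adjusted p of 0.0251. TXNRD1, the cytosolic thioredoxin reductase and a selenoprotein, named after its values were seen, lay the other way. It had 20060, 18240 and 18800 with RSL3 and 15280, 10990 and 16970 with RSL3+ID, without overlap, and its estimate was −0.42 on the log2 scale (SE 0.16, adjusted p = 0.174), or −0.24 without RSL3+ID library 2. Apart from the mitochondrial pair below, the groups also did not overlap for GLRX2, a mitochondrial glutaredoxin, and GSTP1, a glutathione transferase that acts on PRDX6, both named after their values were seen. GLRX2 had 2029 ± 161.2 and 2670 ± 60.9 (SD, n = 3 per group; log2 fold change 0.40, SE 0.13, adjusted p = 0.133). GSTP1 had 11020 ± 1323 and 14540 ± 1492 (log2 fold change 0.40, SE 0.14, adjusted p = 0.138). With the length trend removed TXN was at 0.27 and GSTP1 at 0.25 on the log2 scale. Unadjusted limma p-values were under 0.05 for 6 of the 15 genes of this list, against 19.3% of all tested genes. The same share applies to the counts of the lists below.

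The estimates of the mitochondrial pair had the same opposite signs, and these genes were also named after their values were seen. TXN2, the mitochondrial thioredoxin that reduces PRDX3, had 1904, 1753 and 2194 with RSL3 and 2585, 3401 and 2258 with RSL3+ID, an estimate of 0.48 on the log2 scale (SE 0.17, adjusted p = 0.154), or 0.32 without RSL3+ID library 2. TXNRD2, its reductase, had 598.6, 703.4 and 767.1 with RSL3 and 388.6, 596.7 and 538.2 with RSL3+ID, an estimate of −0.46 (SE 0.20, adjusted p = 0.225). Neither gene passed, and neither overlapped between groups. Without RSL3+ID library 2 TXNRD2 passed, at −0.58 (limma adjusted p = 0.0489), where 9.34% of all tested genes were called. With any other library left out its adjusted p was between 0.305 and 0.455.

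NADPH supply and metal supply showed no called gene. Of the 10 NADPH genes 4 had positive and 6 negative estimates (median −0.06, 3 with an unadjusted p under 0.05). IDH1, the cytosolic isocitrate dehydrogenase that makes NADPH, had 2144, 2230 and 2301 with RSL3 and 2913, 3293 and 3500 with RSL3+ID. Its log2 fold change was 0.54 (SE 0.13, adjusted p = 0.0651), and the authors' deposited table gives 0.54 with an adjusted p of 0.0129. Of 8 tested genes for copper and manganese supply, 6 estimates were positive and 2 negative (median 0.14, 0 with an unadjusted p under 0.05). The 2 with the smallest p were ATOX1, a cytosolic copper chaperone, at 0.24 on the log2 scale (adjusted p = 0.377), and SLC39A14, an importer of zinc, iron and manganese, at −0.21 (adjusted p = 0.524), or −0.07 without RSL3+ID library 2.

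Enzymes that make superoxide or hydrogen peroxide had 15 tested genes of 24, 7 with positive and 8 with negative estimates (median −0.01, 3 with an unadjusted p under 0.05). QSOX1, a secretory-pathway oxidase that forms disulfides and releases hydrogen peroxide, had 7472, 7089 and 7325 with RSL3 and 9776, 10100 and 10000 with RSL3+ID. Both groups were tight, and the log2 fold change of QSOX1 was 0.45 (SE 0.12, adjusted p = 0.0728), against 0.45 and an adjusted p of 0.0232 in the authors' deposited table. In the peroxisome list, 9 of 15 tested estimates were positive and 6 negative (median 0.11, 4 with an unadjusted p under 0.05). ACOX2, an oxidase of branched-chain fatty acids and bile acid intermediates that makes hydrogen peroxide, had 42.0, 28.9 and 57.8 with RSL3 and 133.1, 85.2 and 125.2 with RSL3+ID. Its log2 fold change was 1.42 (SE 0.35, adjusted p = 0.0584), and the authors' deposited table gives 1.42 with an adjusted p of 0.00961. PEX13, part of the docking complex through which catalase enters peroxisomes, had 256.0 ± 27.8 and 420.6 ± 94.7 (log2 fold change 0.69, SE 0.21, adjusted p = 0.109). The authors' deposited table gives PEX13 an adjusted p of 0.0385.

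Among 13 known transcriptional regulators of these enzymes, 10 estimates were negative and 3 positive (median −0.18, 3 with an unadjusted p under 0.05). NFE2L2, which encodes NRF2, the activator of many antioxidant genes including PRDX1, had 939.1, 1187 and 755.8 with RSL3 and 651.6, 488.7 and 571.9 with RSL3+ID. Every RSL3+ID value lay below every RSL3 value. NFE2L2 had an estimate of −0.74 on the log2 scale (SE 0.19, adjusted p = 0.0735), and the authors' deposited table gives it −0.75 with an adjusted p of 0.0123. RELA and NFKB1, the NF-κB subunits known to induce SOD2 and named after their values were seen, had log2 fold changes of −0.27 (adjusted p = 0.332) and −0.18 (adjusted p = 0.705), the latter −0.08 without RSL3+ID library 2.

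**Figure D4:**
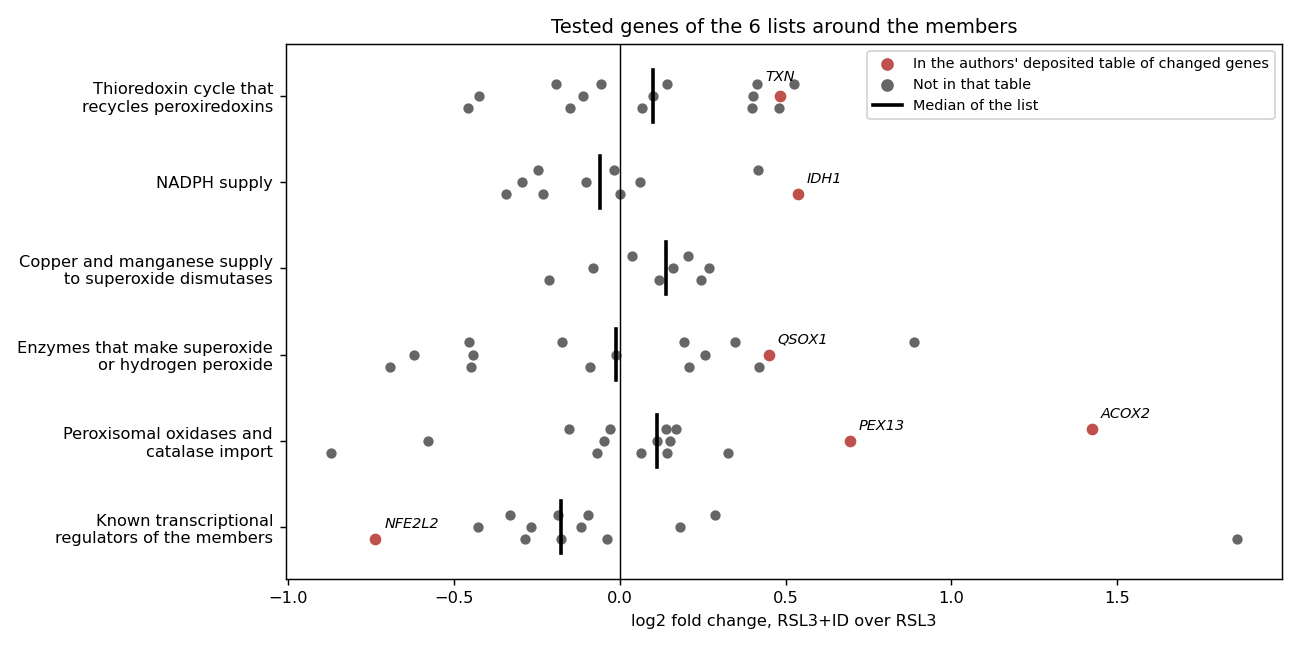
Log2 fold change of RSL3+ID over RSL3 (x axis) of the 76 tested genes in the 6 lists around the members (y axis), with 1 point per gene, a black bar at the median of each list and red for genes in the authors' deposited table of changed genes. The medians lie between −0.18 for the regulators and 0.14 for metal supply, and NFE2L2 at −0.74 is the one red point below 0.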

How the data were processed

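Total RNA of 6 BEAS-2B libraries was sequenced, per the labels' protocols, from NEBNext Ultra libraries. GRCh38, HISAT2 2.2.1, Trimmomatic 0.39, DESeq2 1.30.0 and StringTie 2.1.5 are named in the submitters' processing notes, without roles. Expression was deposited by the authors as log2 values with 1 shared lowest value (6.04), in the form of a variance-stabilising transform. Inverting it gave counts divided by size factors. For 894 genes the means equalled the base mean (a signal in the authors' table of changed genes) to within 2.5e-14, relative to it, and 100.0% of values were whole reads within 0.001. The other columns of that table are, per the file headers, a log2 fold change, its standard error, the Wald score and p-values. Repeated rows of an identifier (214) were left out.

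Genes with a mean normalised count of at least 10 were tested in R 4.3.3 by limma 3.58.1 on log2(normalised count + 1) (trended, robust empirical Bayes, 2-sided, Benjamini-Hochberg over all tested genes, calls at an adjusted p under 0.05). Fold changes are on this scale, which understates those of low genes. The script was tested on simulated data. Members and lists were chosen with earlier results of these data known. Named are all members, list genes that passed here or in the authors' table (otherwise the 2 of smallest p) and the 3 nearest patterns, with other genes named after their values were seen. Lengths, positions and coding bases come from GENCODE 29, promoters from RefSeq (GRCh38.p14). The files and GENCODE 29 pair ENSG00000112096 with SOD2, which newer annotation lists under another identifier.

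Alternatives were the pseudocount (0.5, 5), the filter (none, 50), 2 scalings, the deposited values, plain empirical Bayes, voom weights, a replicate block, removal of a length trend and leaving out each library.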

Additional observations from a re-analysis of the deposited data

How the results depend on the processing

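The 10 log2 fold changes gave 169 values over 17 alternatives, of which 156 kept their direction and their side of the threshold, 7 lost the call (all SOD2), 2 gained one and 4 changed sign. The sign changes were all of uncalled genes, namely CAT (0.0396, with RSL3+ID library 2 left out), SOD3 (0.0428 and 0.00598, with RSL3 library 2 or RSL3+ID library 2 left out) and PRDX2 (−0.0368) with the length trend removed. With any 1 library left out, CAT lay between −0.388 and 0.0396 and SOD3 between −0.474 and 0.0428. SOD3 was not tested with the filter at a mean of 50.

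The count of genes called was 271, and it was 125 with the length trend removed, 0 with plain empirical Bayes (2402 with an unadjusted p under 0.05) and 0 with the replicate block (1993). With 1 library left out it lay between 0 and 1325, the latter without RSL3+ID library 2. The count of the 10 genes called was 1, and it was 0 with plain empirical Bayes and 0 with the replicate block, with SOD2 at an adjusted p of 0.176 in both. With 1 library left out it lay between 0 and 3. The cause was not tested.

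Whether libraries with the same number were paired is not stated. The deviations of same-numbered libraries from their group means correlated at −0.0025, −0.25 and −0.18, and no library correlated best with its own number. With 3 libraries per group this cannot tell whether they were paired, so whether the replicate block follows the design is not known. Depth limits SOD3, with 11 to 30 reads per library.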
